A study of Mus musculus with 12 samples.

Results

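The 8 genes described here encode death receptors (Fas and Tnfrsf10b), decoy receptors (Tnfrsf22 and Tnfrsf23), an adaptor (Fadd), an inhibitor (Cflar) and initiator caspases (Casp8 and Casp9). All were taken by symbol from the 36175 genes of the expression table. They were chosen for their role in cell death, by symbol and with no threshold on a measured value, although earlier results of these data were known. RNA-seq was performed on B cells purified from Peyer's patches (PP), the lymphoid follicles of the small intestine, of male C57BL/6JHsd wild-type mice that were 10 to 12 weeks old. The 6 stroke mice (labelled as brain injury) underwent transient occlusion of the middle cerebral artery for 1 h, and in the 6 sham controls surgery stopped short of occlusion, the filament entering only the common carotid artery for a moment. All mice received buprenorphine before and carprofen after surgery, PP were taken 18 h later, and each library came from 1 mouse. B cells were purified magnetically, by a B cell kit and then by CD45 beads.

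Death receptors are members of the tumor necrosis factor (TNF) receptor family that carry a death domain in their cytoplasmic tail. When Fas ligand or TRAIL binds, Fas or the TRAIL receptor recruits the adaptor FADD, which brings in procaspase-8, and c-FLIP, the product of Cflar, competes with caspase-8 in this complex and restrains it. The mitochondrial route instead activates caspase-9 on APAF1, and both routes converge on executioner caspases. In B cells, Fas is high in germinal centers (GC), where it is used to delete unwanted clones, and germinal centers are a constant feature of PP.

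All 8 genes reached 1 in each of the 12 mice and were therefore among the 12590 genes tested. Values are normalized TPM, an abundance of transcripts scaled to transcript length, so that levels of different genes can be compared within a mouse. How many reads each value rests on is unknown. The values were transformed as log2(value + 0.5), the pseudocount being the one sleuth uses, and tested with limma. The pseudocount makes differences of weakly expressed genes, here Fadd and Tnfrsf23, look smaller than they are. The libraries differed in their totals, which ranged from 559570 in sham control 6 to 1404340 in sham control 1. Sham controls 1 and 2 had the highest sums of epithelial markers, at 1718 and 1619 compared with 32.7 to 854 in the other mice, and stroke mouse 6 had the most genes above 0, at 30060. The 7 B cell markers summed to 2197 to 2736 in sham controls and 1587 to 2591 in stroke mice. T cell markers summed to 79.9 to 140 and 65.4 to 174 (Cd3e 4.45 to 22.9 and 2.51 to 27.7), and natural killer markers to 10 to 101 and 3.83 to 215. Endothelial markers summed to 78.4 to 106 and 87.4 to 107, nearly all of it Pecam1, at 77.1 to 103 and 85.6 to 105. Emcn and Kdr were under 1 in all mice, and Cdh5 and Tie1 reached at most 2.93 and 1.07. Neutrophil and myeloid markers summed to 55.9 to 444 and 81.4 to 247, with the neutrophil genes S100a8 and Ly6g under 1 in all mice. In bulk RNA, fewer cells of a type and less RNA per cell cannot be told apart.

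The 8 genes spanned a wide range of levels. Cflar and Casp8 were highest, with means over all 12 mice of 71.0 and 66.5, at the 85.5 and 84.4 percentiles of the genes tested. Casp9 and Fas followed at 24.9 and 22.3, then Tnfrsf22 at 14.3, Tnfrsf10b at 6.42, Fadd at 4.05 and Tnfrsf23 at 3.41. Of the 7 neighboring pairs in this order, only Casp8 over Casp9 and Tnfrsf22 over Tnfrsf10b had ranges that did not overlap across the 12 mice. Cflar was above Casp8 in 8 of 12 mice, Casp9 above Fas in 7 and Fadd above Tnfrsf23 in 8, so that these neighbors had no stable order.

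The genes also differed in how much they varied between mice. The coefficient of variation over the 12 mice was 8.05% for Casp8, which was lower than for all but 1.47% of the genes tested, 11.1% for Tnfrsf22, 12.3% for Cflar and 13.0% for Tnfrsf10b. The median over all genes tested was 22.6%. Fas, at 33.0%, Fadd, at 29.5%, and Tnfrsf23, at 27.8%, varied more than the median gene, and Casp9 was close to it at 20.5%. Thus the caspase of the death receptor complex and its inhibitor were abundant and steady, whereas Fas and the adaptor Fadd were less abundant and differed more between mice.

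At an unadjusted p under 0.05, 1 of the 8 genes, Tnfrsf23, was higher in stroke mice and 0 were lower, beside 4.42% of all genes tested that were higher and 1.69% that were lower (limma, 6.12% in either direction). After Benjamini-Hochberg adjustment over all genes, 0 of the 8 and 0% of the 12590 genes had an adjusted p under 0.05, whereas 770 genes had an unadjusted p under 0.05. The smallest adjusted p among the 8 was 0.783. For 0 of the 8 genes were the groups free of overlap, beside 0.437% of all genes tested. The log2 fold changes of stroke over sham were positive for 4 genes and negative for 4, with a median of -0.0020, compared with 0.0069 over all genes tested.

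**Figure D1:**
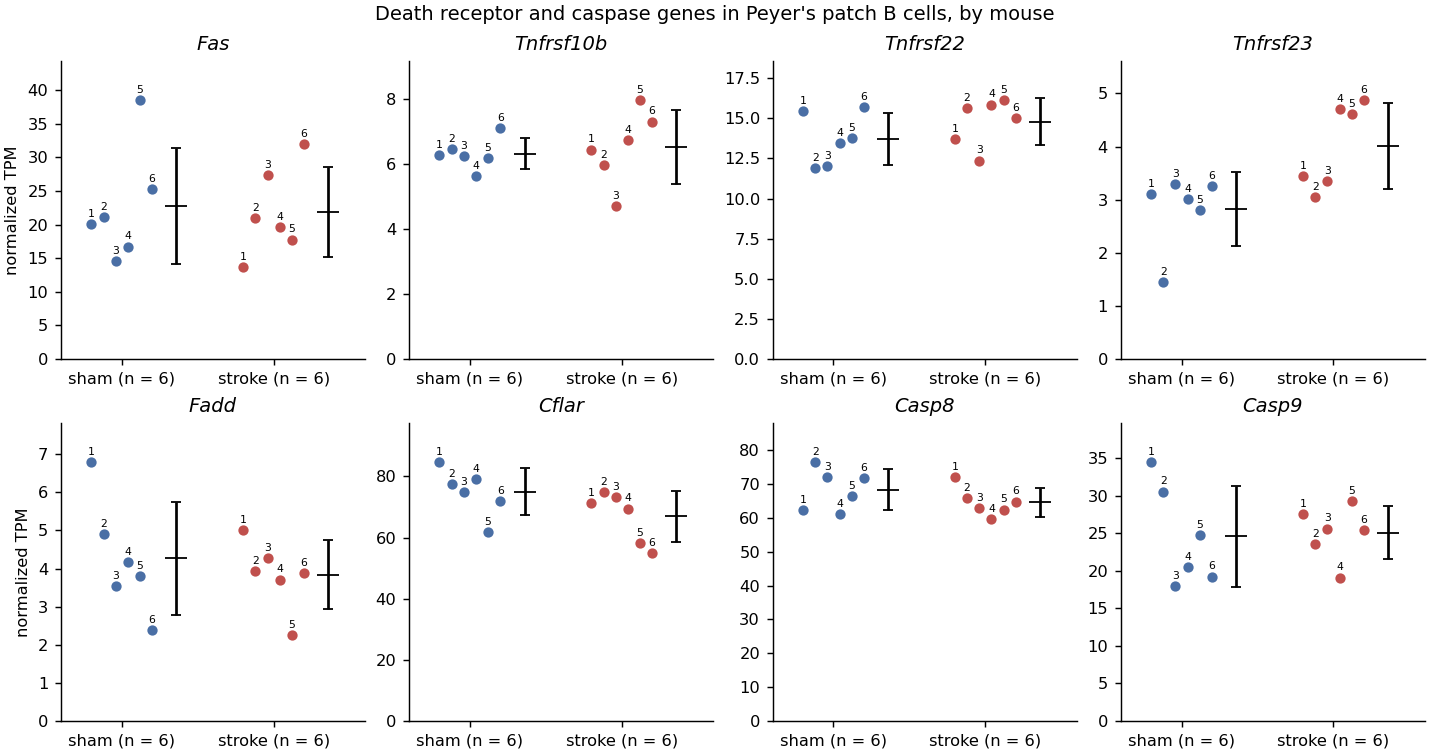
Normalized TPM of the 8 genes in each of 6 sham controls (blue) and 6 stroke mice (red), with the replicate number beside each point and the mean ± SD as a black bar. The groups overlapped for every gene; for Tnfrsf23, 5 of the 6 stroke mice lay above the highest sham control.

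Fas, the receptor for Fas ligand, lies on chromosome 19 of GRCm38 from 34290666 to 34327772. Its value ranged from 14.5 to 38.6 in sham controls, with a median of 20.6, and from 13.6 to 32.0 in stroke mice, with a median of 20.3. The highest sham control was mouse 5 and the highest stroke mouse was mouse 6, and the lowest value of all was in stroke mouse 1. Fas averaged 22.7 ± 8.61 after sham surgery against 21.9 ± 6.68 after stroke (SD, n = 6 each), and limma gave a log2 difference of -0.03 ± 0.24 (SE; adjusted p = 0.979). The 95% interval of the fold change reached from 0.679 to 1.40, so that differences of a size within it were not detectable with these mice. Without sham control 5 the log2 fold change was 0.13, its sign was also positive without sham control 6, stroke mouse 1 or stroke mouse 5, and it was 0.09 when every mouse was scaled to the same total.

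Tnfrsf10b encodes the TRAIL receptor of the mouse that carries a death domain. It lies on chromosome 14 of GRCm38 from 69767472 to 69784411. In sham controls its value was between 5.62 and 7.10 with a median of 6.26, and in stroke mice between 4.72 and 7.98 with a median of 6.60. Stroke mouse 3 was the lowest of all 12 mice and stroke mouse 5 the highest, so that the stroke mice spread around the narrower sham range. Limma gave a log2 difference, stroke minus sham, of 0.03 ± 0.12 (SE; adjusted p = 0.963), with a fold interval of 0.848 to 1.23 (95%). Its sign was negative without sham control 4, stroke mouse 5 or stroke mouse 6, at -0.03 for the most negative, and with quantile normalization.

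Tnfrsf22 and Tnfrsf23 encode decoy TRAIL receptors of the mouse, which bind the ligand but lack a death domain. They are neighbors on the minus strand of chromosome 7 of GRCm38, from 143634806 to 143649661 and from 143665809 to 143685872, 16147 bp apart, with their relative Tnfrsf26 6083 bp from the other side of Tnfrsf22. Both genes share stretches of sequence, within which reads cannot be told apart, although most of each transcript is distinct. Of the 31-base windows in the GENCODE M21 transcripts of Tnfrsf23, 26.6% also occurred in Tnfrsf22, and 25.5% of the windows of Tnfrsf22 occurred in Tnfrsf23. In any other gene occurred 38.5% of the windows of Tnfrsf22 and 28.5% of those of Tnfrsf23, compared with 11.4% for Tnfrsf10b, 9.40% for Cflar, 8.73% for Fadd, 8.64% for Casp8, 1.30% for Casp9 and 0.0957% for Fas. Over coding exons 2 to 5, which are equal in length in both genes, 372 of 406 bases were identical (91.6%), and the other exons were not compared. Sequences of 3 of these exons from the GENCODE M21 transcripts (1 per gene, GRCm38) are shown here to let the paralogs be compared, 5′ to 3′ on the transcript, with the bases that differ between both genes in capitals. Exon 2 was the least alike of the 4, with 76 of 91 bases identical, exon 3 had 121 of 129 and exon 5 had 74 of 74, so that reads within exon 5 alone cannot be assigned to either gene.
Tnfrsf22 exon 2, chr7:143644781-143644871, minus strand: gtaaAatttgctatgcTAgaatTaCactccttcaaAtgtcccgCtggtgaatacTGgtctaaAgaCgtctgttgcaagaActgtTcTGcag
Tnfrsf23 exon 2, chr7:143681460-143681550, minus strand: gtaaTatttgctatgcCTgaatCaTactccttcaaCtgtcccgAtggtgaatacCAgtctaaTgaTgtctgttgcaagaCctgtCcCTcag
Tnfrsf22 exon 3, chr7:143643276-143643404, minus strand: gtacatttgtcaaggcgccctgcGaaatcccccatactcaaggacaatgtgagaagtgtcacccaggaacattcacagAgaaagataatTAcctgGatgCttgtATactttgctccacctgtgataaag
Tnfrsf23 exon 3, chr7:143679945-143680073, minus strand: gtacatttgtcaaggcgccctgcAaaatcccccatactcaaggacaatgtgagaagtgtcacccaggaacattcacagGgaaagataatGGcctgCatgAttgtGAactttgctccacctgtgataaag
Tnfrsf22 exon 5, chr7:143639902-143639975, minus strand: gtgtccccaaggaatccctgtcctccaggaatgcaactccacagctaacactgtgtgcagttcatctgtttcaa
Tnfrsf23 exon 5, chr7:143669982-143670055, minus strand: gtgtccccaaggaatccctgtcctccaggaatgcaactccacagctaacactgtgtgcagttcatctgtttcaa

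Tnfrsf23 had the smallest p of the 8 genes. Its values in sham controls 1 to 6 were 3.11, 1.45, 3.30, 3.01, 2.80 and 3.25, and in stroke mice 1 to 6 they were 3.44, 3.04, 3.35, 4.71, 4.61 and 4.88. Thus 5 of 6 stroke mice were above every sham control, stroke mouse 2 lay within the sham range, and sham control 2 was far below all others. Stroke mice 4, 5 and 6 formed the upper end. The mean was 2.82 ± 0.695 after sham surgery against 4.01 ± 0.811 after stroke (SD, n = 6 each). Limma gave a log2 difference, stroke minus sham, of 0.46 ± 0.18 (SE; unadjusted p = 0.0245, adjusted p = 0.783), a fold of 1.37 with an interval of 1.05 to 1.79 (95%), and the exact two-sided permutation p over all assignments of the mice was 0.0152. All 6 stroke mice were above the sham mean. The adjusted p ranged from 0.264 to 0.999 over the alternatives.

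The unadjusted limma p of Tnfrsf23 was above 0.05 without stroke mouse 4, where the log2 difference was 0.41, without stroke mouse 6, where it was 0.40, and when each mouse was scaled to the same total. The same held, at 0.28, when sham controls 1, 2 and 6 and stroke mouse 6 were left out together, which was chosen after the data were seen. Without sham control 2, the log2 difference was 0.31 and the call was kept. The same-total scaling raised the median log2 fold change of all genes to 0.13, beside which Tnfrsf23 was at 0.55. Epithelial markers, of which 5 of 9 were tested, moved the opposite way to Tnfrsf23 (r = -0.70 over the 12 mice). Plasma cell markers did too (r = -0.69, rho = -0.73), but that relation did not pass the correction over 64 relations (adjusted permutation p = 0.062 and 0.0937). The summed epithelial level was 36.0 to 1718 in sham controls and 32.7 to 854 in stroke mice, with Epcam at 1.53 to 177 and 3.02 to 56.3. The summed plasma cell level was 295 to 1486 and 372 to 1085. The part of these cells in the Tnfrsf23 difference was not tested.

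Tnfrsf22 was the more abundant of the pair in every mouse. Its value lay between 11.9 and 15.7 in sham controls, with a median of 13.6, and between 12.4 and 16.1 in stroke mice, with a median of 15.3. The groups overlapped, with 2 stroke mice above every sham control and 4 of 6 above the sham mean. Limma gave a log2 difference, stroke minus sham, of 0.11 ± 0.11 (SE; adjusted p = 0.861), and the fold interval was 0.910 to 1.27 (95%). Because reads of the paralogs can be divided in different ways, their values were also added up in each mouse, a step chosen after the data were seen. The sum averaged 16.5 ± 2.08 after sham surgery against 18.8 ± 2.02 after stroke (SD, n = 6 each). The difference of 0.18 on the log2 scale had an exact two-sided permutation p of 0.0844, above 0.05. Tnfrsf23 made up 10.8% to 21.5% of the sum in sham controls and 16.3% to 24.5% in stroke mice. Tnfrsf26 had a log2 difference of 0.11 (adjusted p = 0.875 from limma) and averaged 4.07 ± 0.467 after sham surgery against 4.46 ± 0.874 after stroke (SD, n = 6 each). Stroke mouse 1 was the highest at 6.14, and without it the log2 difference was 0.02.

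Fadd, the adaptor between death receptors and caspase-8, lies on chromosome 7 of GRCm38 from 144577318 to 144582463. Its value was between 2.39 and 6.80 in sham controls, with a median of 3.99, and between 2.25 and 5.0 in stroke mice, with a median of 3.91. Sham control 1 was the highest and stroke mouse 5 the lowest, followed by sham control 6. Limma gave a log2 difference, stroke minus sham, of -0.11 ± 0.21 (SE; adjusted p = 0.923), with a fold interval of 0.675 to 1.28 (95%). It turned positive, at 0.03, without sham control 1, at 0.02 without stroke mouse 5, and at 0.01 when each mouse was scaled to the same total. Of its 31-base windows, 8.73% occurred in other genes, mostly in the antisense gene Faddos, and whether the counting used strand is not given in the sources used here.

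Casp8, the initiator caspase of the receptor complex, and Cflar, its restraining homolog, are neighbors on chromosome 1 of GRCm38, from 58795374 to 58847503 and from 58711508 to 58758884, 36489 bp apart. Casp8 was between 61.1 and 76.5 in sham controls, with a median of 69.2, and between 59.7 and 72.0 in stroke mice, with a median of 63.8. Only stroke mouse 1 was above the sham mean. Limma gave a log2 difference, stroke minus sham, of -0.08 ± 0.10 (SE; adjusted p = 0.878) and the fold interval was 0.817 to 1.10 (95%), the narrowest of the 8 genes. With each mouse scaled to the same total, the log2 fold change was 0.05.

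With all 12 mice, Cflar had the most negative log2 fold change of the 8 genes, but not without sham control 6, without stroke mouse 6, or without sham controls 1, 2 and 6 and stroke mouse 6 together. It was between 61.9 and 84.7 in sham controls, with a median of 76.2, and between 55.0 and 74.9 in stroke mice, with a median of 70.5. All 6 stroke mice were below the sham mean, and 3 sham controls were above all stroke mice, while sham control 5 lay among the lowest mice. The mean was 75.0 ± 7.75 after sham surgery against 67.0 ± 8.37 after stroke (SD, n = 6 each). The log2 difference was -0.16 ± 0.12 (SE, adjusted p = 0.815 from limma), with an exact two-sided permutation p of 0.130 and a fold interval of 0.748 to 1.06 (95%). It was -0.04 with every mouse scaled to the same total and -0.05 without the 4 mice.

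The ratio of Casp8 to Cflar within a mouse does not depend on how the mouse was scaled. It was between 0.736 and 1.08 in sham controls, with a median of 0.975, and between 0.857 and 1.18 in stroke mice, with a median of 0.944. The caspase exceeded its inhibitor in 1 sham control and 3 stroke mice, and the ranges overlapped. Transcripts of both genes were thus present at nearly equal levels in both groups, and the mean ratio was 0.922 ± 0.136 after sham surgery against 0.976 ± 0.133 after stroke (SD, n = 6 each). The gene-level values do not separate the long and short forms of c-FLIP, whose effects on caspase-8 differ.

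Casp9, the initiator caspase of the mitochondrial route, lies on chromosome 4 of GRCm38 from 141793612 to 141815976. Its value was between 17.99 and 34.5 in sham controls, with a median of 22.7, and between 19.1 and 29.3 in stroke mice, with a median of 25.6. Sham controls 1 and 2 had the highest values of all mice and sham control 3 the lowest, so that the stroke mice lay within the sham range. Limma gave a log2 difference, stroke minus sham, of 0.06 ± 0.17 (SE; adjusted p = 0.951), with a fold interval of 0.805 to 1.35 (95%). Its sign was negative without sham control 3, at -0.02, or sham control 6. The log2 difference was larger without sham control 1, at 0.16, and with every mouse scaled to the same total, at 0.18. It was 0.24 without sham controls 1, 2 and 6 and stroke mouse 6 together. Apaf1, the scaffold that activates caspase-9, was at 12.9 ± 1.93 after sham surgery against 13.2 ± 1.69 after stroke (SD, n = 6 each). The ratio of Casp9 to Apaf1 was 1.92 ± 0.519 after sham surgery against 1.92 ± 0.319 after stroke (SD, n = 6 each), and it was above 1 in all 12 mice.

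**Figure D2:**
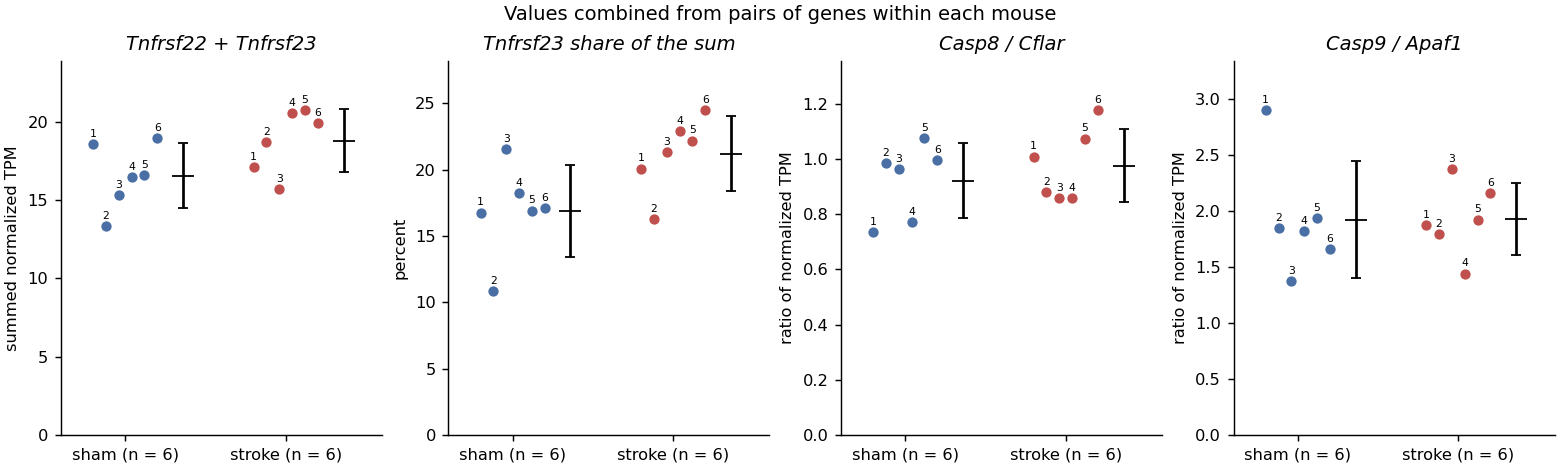
Values combined from 2 genes in each sham control (blue) and stroke mouse (red), with mean ± SD as a black bar: the sum of Tnfrsf22 and Tnfrsf23 in normalized TPM, the percent of that sum from Tnfrsf23, and the ratios of Casp8 to Cflar and of Casp9 to Apaf1. The Casp8 to Cflar ratio lay between 0.736 and 1.18 in all mice, and sham control 1 stood apart with a Casp9 to Apaf1 ratio of 2.90.

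Other genes of the death receptor and caspase pathway were described from a list of 64, of which 52 passed the filter and could be tested. Of these, limma called 1 higher and 0 lower before adjustment (p under 0.05), beside 4.42% and 1.69% of all genes, and 0 after it. The median log2 fold change was -0.033. The gene called was Acin1, a caspase substrate linked to chromatin condensation and splicing, which was 355 ± 79.9 after sham surgery against 446 ± 64.6 after stroke (SD, n = 6 each), with a log2 difference of 0.35 (unadjusted p = 0.0480, adjusted p = 0.791 from limma). This call was lost with median-of-ratios scaling, quantile normalization, scaling to the same total and a filter on the mean, without sham controls 1, 2 and 6 and stroke mouse 6 together, and in 8 of the 12 fits that left out 1 mouse: sham control 1, 2 or 4 or stroke mouse 2, 3, 4, 5 or 6.

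None of the 4 ligands tested was called before adjustment in the unblocked, unweighted limma fit to all 12 mice. Under alternatives, the lymphotoxin gene Ltb was called lower with sample quality weights (-0.51) and without sham control 6 (-0.71), and Lta without sham control 1 (-0.55) and without sham controls 1, 2 and 6 and stroke mouse 6 together (-0.74). Fas ligand (Fasl) was between 0.274 and 1.98 in sham controls and between 0.175 and 2.40 in stroke mice and did not enter the test. TRAIL (Tnfsf10) had a log2 fold change of -0.20 (adjusted p = 0.903 from limma), which was between -0.40 without stroke mouse 1 and -0.03 without sham control 1, and -0.08 with every mouse scaled to the same total. All 4 ligands tested had negative values, with a median of -0.42, beside 6124 negative values among the 12590 genes tested. Their adjusted p was at least 0.793. The ligands of the list that did not enter the test went the other way at low levels. Fasl, Tnfsf12 and Tnfsf15 averaged 0.771, 0.544 and 0.825 in sham controls and 1.13, 1.34 and 0.990 in stroke mice. Tnfrsf1a, the TNF receptor with a death domain, was between 0.876 and 10.9 in sham controls and between 0.402 and 7.38 in stroke mice, with its highest values in the 2 sham controls with the highest epithelial sums.

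Among the adaptors, Ripk1, the kinase that joins receptor complexes to survival or death signals, had a log2 fold change of -0.30 (adjusted p = 0.791 from limma). Of 15 adaptors tested, 7 had positive and 8 negative values. Traf3 had the smallest p among them, with a log2 fold change of -0.23 (unadjusted p = 0.0524, adjusted p = 0.791 from limma). It was called lower with a pseudocount of 1, a minimum of 5, no filter or quality weights, and without sham control 5 or 6 or stroke mouse 2 or 4. Of 6 other caspases tested, 3 had positive and 3 negative values. Bid, which carries the signal from caspase-8 to mitochondria, was at -0.04, and at 0.09 with every mouse scaled to the same total, and Apaf1 was at 0.03. Xiap, a direct inhibitor of caspases, was at -0.27 (adjusted p = 0.814 from limma). None of the genes named in this group was called before adjustment in the unblocked, unweighted limma fit to all 12 mice. Ripk1 was called lower before adjustment with a replicate block (-0.30), with sample quality weights (-0.34) and without stroke mouse 1 (-0.37), and Xiap with the weights (-0.31). Without sham control 6, limma called 2 of the 52 genes higher and 9 lower before adjustment, among the latter Ripk1 at -0.39 and Xiap at -0.38, beside 7.44% and 9.2% of all genes in the same fit.

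**Figure D3:**
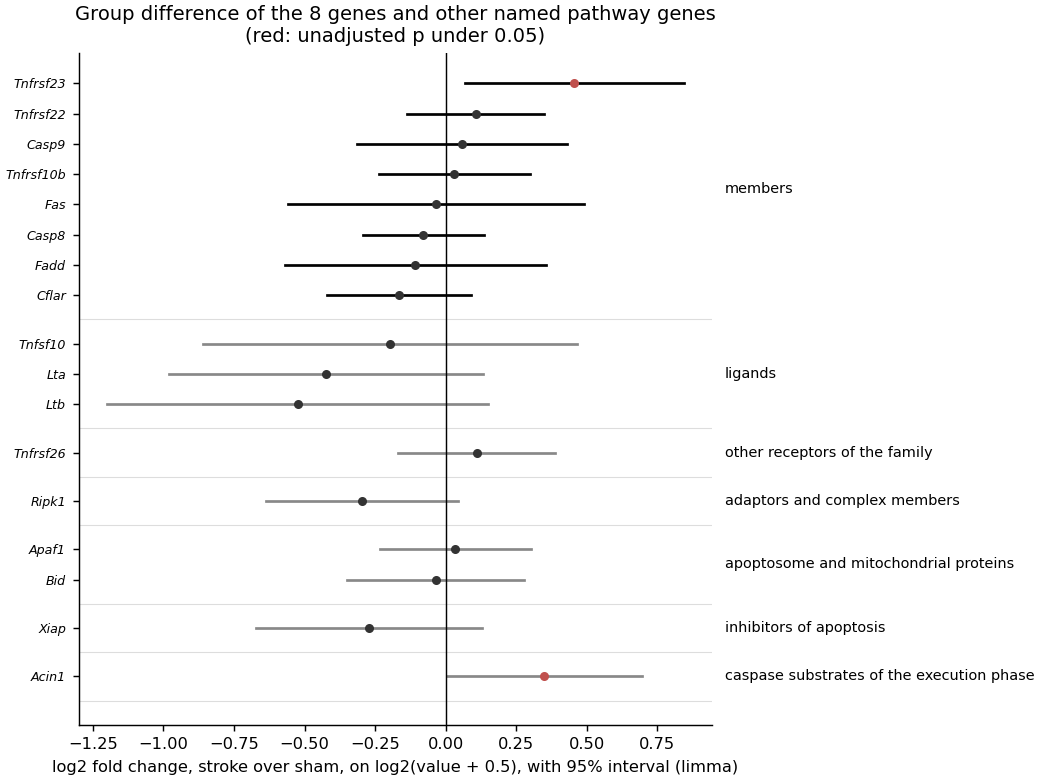
Log2 fold change of stroke over sham, on the scale of log2(value + 0.5), with its 95% interval from limma for the 8 genes (black) and 9 other tested pathway genes named in the text (gray), grouped by role. Traf3 is not shown. Red points have an unadjusted p under 0.05. Of the genes shown, the intervals of all but Tnfrsf23 and Acin1 include 0.

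Fas varied between mice along with some germinal center genes. Over the 12 mice, on values centered on each mouse mean, the 3 genes most like Fas were Hjurp (Pearson r = 0.93), Mybl1 (r = 0.93) and Pola1 (r = 0.92). Hjurp is a centromere histone chaperone, Mybl1 a transcription factor of the germinal center list, and Pola1 the catalytic subunit of DNA polymerase alpha. S1pr2, the receptor that holds B cells in germinal centers, had r = 0.87, with 15 of the other 12589 genes closer to Fas, and Bcl6, the master regulator of germinal center B cells, had r = 0.68. Rgs13 (r = 0.05) and Gna13 (r = -0.05) of the same list were less alike. The mean of the 8 genes of the list had r = 0.71 with Fas (permutation p = 0.0106, adjusted over 64 relations 0.062) and a Spearman rho of 0.70 (permutation p = 0.0146, adjusted 0.0937), so that the relation did not pass the correction. It was 0.71 within sham controls and 0.77 within stroke mice (exact permutation p = 0.115 and 0.0931), and 0.51 without sham control 5 and stroke mouse 3. The summed germinal center level was 270 to 509 in sham controls and 285 to 512 in stroke mice. Bcl6 averaged 42.2 ± 9.01 and 41.0 ± 7.15 in the sham and stroke groups (SD, n = 6 each).

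Fadd varied along with myeloid and plasma cell markers. Its 3 most similar genes were the lysophosphatidic acid receptor Lpar5 (r = 0.95) and the immunoglobulin variable genes Igkv6-32 (r = 0.95) and Ighv8-8 (r = 0.94). With the neutrophil and myeloid list, of which 5 of 9 genes were tested, r was 0.94 (permutation p = 2e-05, adjusted 0.00096) and rho 0.78 (p = 0.00423, adjusted 0.0677). The genes tested were Lyz2, Itgam, Csf1r, Cst3 and Fcer1g. The neutrophil genes of the list, S100a8, S100a9, Ly6g and Csf3r, did not pass the filter and had no part in these values. The r was 0.92 within sham controls and 0.99 within stroke mice (exact permutation p = 0.0181 and 0.00556), and 0.88 without sham control 6 and stroke mouse 5, the 2 mice farthest from the median. With the plasma cell list, r was 0.89 (permutation p = 3e-05, adjusted 0.00096) and rho 0.82 (p = 0.00192, adjusted 0.041), within groups 0.86 and 0.93, and 0.74 without the same mice. With the B cell list, r was 0.29 (permutation p = 0.325). It was -0.60 within sham controls and 0.92 within stroke mice (exact permutation p = 0.172 and 0.0986), and -0.55 without sham control 3 and stroke mouse 5. Stroke mouse 5 had the lowest B cell value, at 3.45. The summed myeloid level was 55.9 to 444 in sham controls and 81.4 to 247 in stroke mice. The part of myeloid and plasma cells in the Fadd values was not tested.

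**Figure D4:**
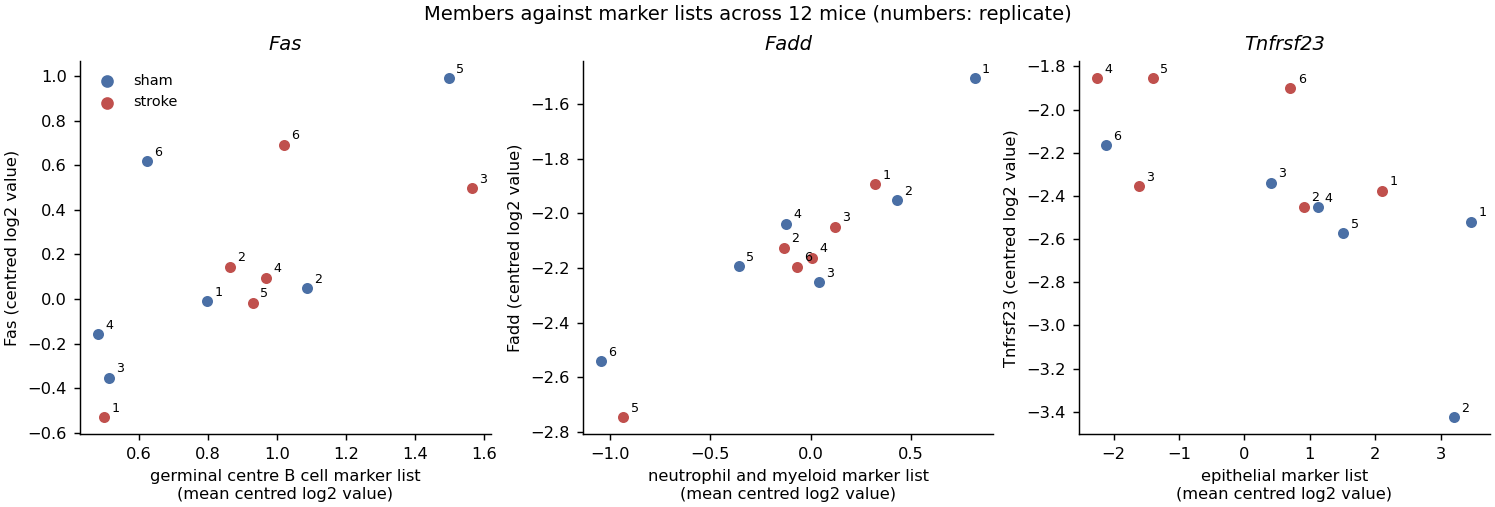
Centered log2 values of Fas, Fadd and Tnfrsf23 in each of the 12 mice (y axis) against the mean centered log2 value of the germinal center, neutrophil and myeloid, and epithelial marker lists (x axis); numbers are replicate numbers. The correlation was positive for Fas with the germinal center list (r = 0.71, not passing the correction) and for Fadd with the myeloid list (r = 0.94), and negative for Tnfrsf23 with the epithelial list (r = -0.70). The neutrophil genes S100a8, S100a9, Ly6g and Csf3r did not pass the filter and are not part of the neutrophil and myeloid values shown.

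Of the 64 relations between the 8 genes and 8 marker lists, 9 had an adjusted p under 0.05 by Pearson's r and 3 by Spearman's rho. The 3 that passed by rho were Fadd with the plasma cell list, Tnfrsf23 with the epithelial list and Casp9 with the endothelial list, which here is Pecam1 alone. Fadd was positive with the epithelial list (r = 0.72, adjusted permutation p = 0.0464; rho = 0.70, adjusted permutation p = 0.0937) and with the natural killer list (r = 0.74, adjusted permutation p = 0.045; rho = 0.69, adjusted permutation p = 0.0937), of which only Gzma was tested. Tnfrsf23 was negative with the epithelial list (r = -0.70, adjusted permutation p = 0.0464; rho = -0.84, adjusted permutation p = 0.0349), and r was -0.70 within sham controls, -0.52 within stroke mice, and -0.65 without sham control 6 and stroke mouse 4. Its relation to the plasma cell list did not pass the correction (r = -0.69, adjusted permutation p = 0.062; rho = -0.73, adjusted permutation p = 0.0937), and r was -0.59 within sham controls, -0.82 within stroke mice and -0.68 without sham control 6 and stroke mouse 5. Casp9 was negative with the B cell list (r = -0.75, adjusted permutation p = 0.0291; rho = -0.69, adjusted permutation p = 0.0937) and with Pecam1, the only tested gene of the endothelial list (r = -0.81, adjusted permutation p = 0.0291; rho = -0.89, adjusted permutation p = 0.0224). Tnfrsf22 and Tnfrsf10b were negative with the plasma cell list (r = -0.77 and -0.74, adjusted permutation p = 0.0447 and 0.0464), but did not pass by rho (-0.72 and -0.71, adjusted permutation p = 0.0937 for each). Without sham control 6 and stroke mouse 5 the r values were weaker, at -0.53 and -0.34. They were -0.75 and -0.86 within sham controls (exact permutation p = 0.0917 and 0.0486), and -0.75 and -0.73 within stroke mice (exact permutation p = 0.0861 and 0.1). No relation with the T cell list and none with the germinal center list passed the correction. All of these values come from the same 12 libraries and share the centering on each mouse mean.

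The 3 TRAIL receptor genes varied together, as a description over 12 mice. Tnfrsf10b had r = 0.74 with Tnfrsf22 and 0.51 with Tnfrsf23, and Tnfrsf22 had r = 0.69 with Tnfrsf23, which share sequence as given above. Fadd was opposed to all 3, with r = -0.71, -0.52 and -0.50. Fas was not close to any of the other 7 genes, with r between -0.36 for Cflar and 0.24 for Tnfrsf22. Casp8 and Cflar, although neighbors on the chromosome, had r = 0.26. The genes most like Tnfrsf10b were Gm21798 (r = 0.95), the autophagy gene Atg2b (r = 0.94) and the neurotrophin receptor gene Ntrk2 (r = 0.93), those most like Tnfrsf22 were Mdfi (r = 0.96), Dynlt1c (r = 0.92) and Gm10040 (r = 0.91), and those most like Tnfrsf23 were the dystrophin relative Utrn (r = 0.92), Ldhd (r = 0.90) and the interleukin-1 receptor kinase Irak1 (r = 0.90). Casp9 was most like the AP-1 gene Fosl2 (r = 0.92), the thyroid hormone receptor gene Thra (r = 0.92) and Aamdc (r = 0.91). Cflar and Casp8 had weaker counterparts, led by Glcci1 (r = 0.85), Iars (r = 0.84) and Gm18329 (r = 0.82) for Cflar, and by 5430427O19Rik (r = 0.84), the proton pump gene Atp6v1d (r = 0.83) and Zfp946 (r = 0.81) for Casp8.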

How the data were processed

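RNA-seq libraries of PP B cells from 6 sham controls and 6 stroke mice were used, 1 library per mouse by the labels. The authors trimmed reads with Trimmomatic 0.39, quantified transcripts by kallisto 0.48.0 (GRCm38, Ensembl release 102) and used sleuth 0.30.0 in R 4.1.2. Whether counting used strand is not given in the sources used here. The deposited values are a non-negative expression signal per gene, labelled as normalized TPM. Plain TPM had been assumed for the tests, but column sums differ, so the values were handled as a signal on the log scale. No read counts were used, so the depth is unknown and no counting error is given.

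Values were taken as log2(value + 0.5). Genes reaching 1 in all 12 mice entered a limma 3.58.1 fit (R 4.3.3, no block, Benjamini-Hochberg adjustment over 12590 genes), which was checked on simulated data. Exact two-sided permutation tests covered all assignments of mice to groups, and relations across mice used 100000 permutations. Named genes were the 8 members, pathway genes with an unadjusted p under 0.05, a listed group of pathway and marker genes, and the 3 genes most correlated with each member. Xiap and Ripk1 belong to the listed group, whereas S1pr2, Mybl1, Rgs13, Gna13, Ly6g, Emcn, Kdr, Gzma, Pecam1, Lta and Ltb were chosen after seeing values. So were Traf3, Tnfsf12, Tnfsf15, Cdh5, Tie1, S100a9, Csf3r, Lyz2, Itgam, Csf1r, Cst3 and Fcer1g. Some genes of this rule are among items not reported here. The 8 marker lists were for B, germinal center, plasma, T, neutrophil and myeloid, epithelial, endothelial and natural killer cells. The members and all lists were chosen with earlier results of these data known. Coordinates and sequences come from GENCODE M21 on GRCm38. Alternatives were other pseudocounts, filters and scalings, a replicate block, sample quality weights and leaving out mice.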

Additional observations from a re-analysis of the deposited data

Results flagged for a closer look

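Among 20 sets of 6 values (8 genes and 2 ratios in both groups), 2 had a mouse far from the others, where chance alone gives about 1 in 20. Tnfrsf23 was 1.45 in sham control 2, and its gap to the next sham control was 0.733 of the range of the group. The Casp9 to Apaf1 ratio was 2.90 in sham control 1, with a gap of 0.633 of the range. Both mice are those with the highest sums of epithelial markers, 1619 and 1718, and the part of these cells was not tested.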

How the results depend on the processing

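Of 181 values of the 8 genes under alternatives, 161 kept their direction and their side of an unadjusted p of 0.05 in limma, 16 changed sign and 4 lost the call. The cause was not tested. With the same total in every mouse the log2 difference was 0.09 for Fas, 0.01 for Fadd (0.0095), 0.05 for Casp8 (0.046), 0.55 for Tnfrsf23 (call lost), 0.14 for Tnfrsf10b, 0.23 for Tnfrsf22, -0.04 for Cflar, 0.18 for Casp9 and 0.088 for Bid, while the median of all genes was 0.13. With sample quality weights it was 0.12 for Fas and 0.0021 for Bid, and with quantile normalization -0.0043 for Tnfrsf10b. Without sham controls 1, 2 and 6 and stroke mouse 6 together, chosen after seeing the data, it was 0.28 for Tnfrsf23 (call lost). Leaving out 1 mouse at a time gave -0.15 to 0.13 for Fas, -0.027 to 0.11 for Tnfrsf10b, 0.07 to 0.16 for Tnfrsf22, 0.31 to 0.52 for Tnfrsf23, -0.24 to 0.027 for Fadd, -0.22 to -0.11 for Cflar, -0.11 to -0.05 for Casp8, -0.022 to 0.16 for Casp9, -0.0086 to 0.11 for Apaf1 and -0.093 to 0.056 for Bid.

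Of all 12590 genes, 770 were called at an unadjusted p under 0.05, 764 with a pseudocount of 1, 417 with the same total, 629 without the 4 mice, 1569 with quality weights and 564 to 2095 without 1 mouse, the most without sham control 6 (937 higher and 1158 lower, against 557 and 213 with all mice). With a minimum of 5, 529 of 8827 genes were called, and without a filter 1768 of 31890. The split was 378 and 327 with quantile normalization, 461 and 265 with median-of-ratios scaling, 348 and 69 with the same total and 866 and 703 with quality weights. After adjustment, 1 gene was called with a filter on the mean and 1 without sham control 1, and 0 under the other alternatives. Of the 8 genes, 0 were called with a minimum of 5 (Tnfrsf23, Tnfrsf10b and Fadd were not tested), 0 with the same total, 0 without the 4 mice, and 0 to 1 without 1 mouse (0 without stroke mouse 4 or 6). Of the pathway genes, 2 were called with a pseudocount of 1 (1 higher and 1 lower, beside 551 and 213 of all genes). With a minimum of 5 it was 2 (1 and 1, beside 369 and 160), and without a filter 5 (3 and 2, beside 1418 and 350). It was 0 with the same total, with median-of-ratios scaling and with quantile normalization. With quality weights it was 9 (1 and 8, beside 866 and 703), without the 4 mice 2 (0 and 2, beside 387 and 242), and without 1 mouse 0 to 11. A changed filter also changed how many pathway genes were tested.

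The labels number the mice of each group 1 to 6. Deviations of same-numbered mice correlated at 0.0134 to 0.494, with a mean of 0.218 compared with -0.0414 for other pairs, and 2 of 6 sham controls correlated best with their own number. The meaning of the numbers is not given by the labels and not all pairs exceeded 0.1, so the block was kept as an alternative. In a fit with a replicate block, 1174 genes (770 higher and 404 lower) and 2 pathway genes (Acin1 and Ripk1, which was not called without the block) were called, and Tnfrsf23 was again called among the 8. Depth is unknown and cannot be weighed.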
